A study of Drosophila melanogaster with 18 samples.

Results

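The segment polarity genes en, inv, wg, hh, gsb, ptc, mid, H15 and nkd were taken by name from the gene table of a bulk RNA-seq experiment on Drosophila melanogaster embryos, 9 of 16680 genes. Embryos depleted of E(z) (E(z)-KD) or of CBP (CBP-KD) and wild-type embryos (WT) were staged by hand, at an early time before nuclear cycle 9 and at nuclear cycle 14, when the zygotic genome becomes broadly active, with 3 replicate libraries in each of the 6 groups. Knockdown was maternal: short hairpin RNAs against E(z) or against nej, the gene of CBP, were driven in the female germline by matα4-GAL-VP16, and the embryos came from those females crossed to their siblings. The study's methods list a TRiP control line, and all flies were kept at 25 °C. Library names give a cross for each knockdown and none for WT. The part of cross, driver and genetic background in the differences from WT was not tested. Each library is RNA of pooled whole embryos, so fewer cells expressing a gene and less RNA per cell cannot be told apart. The sample titles and methods call the libraries total RNA, whereas the molecule label says nuclear RNA.

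Segment polarity genes act inside each segment of the fly embryo, downstream of the pair-rule genes. Cells that express the homeodomain factor Engrailed (en) secrete Hedgehog (hh). Neighbouring cells receive Hedgehog through Patched (ptc) and express wingless (wg), the Wnt ligand that in turn maintains en. E(z) is the catalytic subunit of Polycomb repressive complex PRC2, which places the repressive mark H3K27me3, and CBP is the acetyltransferase that places H3K27ac; en and its paralogue invected (inv) are a classic target locus of Polycomb proteins.

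The labels were checked with the targeted genes. E(z) was lower in E(z)-KD than in WT embryos, with log2 fold changes of -9.11 before cycle 9 and -2.80 at cycle 14, and nej was lower in CBP-KD than in WT embryos, with -2.06 and -1.76 (edgeR adjusted p of 1.44e-12, 6.77e-09, 1.64e-08 and 1.44e-08). CBP-KD embryos of cycle 14 also had less E(z) RNA (log2 fold change -1.66, edgeR adjusted p = 6.13e-07). Library totals ranged between 6243486 and 18262569 counts and were lowest in WT at cycle 14 (6243486 to 13773744). Levels, percents of WT and folds below are relative to these totals and are not amounts of RNA per embryo. The study's methods add an ERCC spike-in before RNA extraction, which was not used for scaling here. CBP-KD replicate 3 before cycle 9 and E(z)-KD replicate 2 at cycle 14 stood apart from their groups for several of the genes described here, so calls that changed, and folds that moved by over 1.5 times, on leaving them out are also given without them. Markers of follicle cells and eggshell, 14 genes, summed to between 0.134 and 1.94 CPM (counts scaled to library totals of 1000000 with TMM factors) over the 18 libraries.

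In WT embryos at cycle 14 the levels of the 9 genes spanned a wide range. Per exon length of the gene, in TPM, ptc was highest with 224 ± 25.2 TPM (SD, n = 3). It was followed by nkd, an intracellular antagonist of Wingless signalling, with 106 ± 5.76 TPM. The ligand wg had 21.6 ± 2.57 TPM. Below these came the T-box factor mid (5.76 ± 1.31 TPM), hh (4.16 ± 1.38 TPM), the paired-domain factor gsb (3.76 ± 1.87 TPM) and en (2.39 ± 1.32 TPM). Neighbours in this order from mid down to en had overlapping ranges, whereas ptc, nkd and wg were separated from each other and from the rest. The paralogue inv had 0.445 ± 0.209 TPM, below every WT value of en.

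H15, the paralogue of mid, was hardly detected. It had at most 2 counts in any of the 18 libraries, and in WT at cycle 14 it had 0, 1 and 1 counts, where mid had 83, 161 and 79. H15 lies at chromosome 2L 5404280 to 5416593 and mid at 5461639 to 5467610 on the same strand, 45.0 kb apart (dm6 coordinates, Ensembl gene models). H15 was the only one of the 9 genes that did not pass the filter on low counts, so 8 of them were tested among 8467 genes. Each of these 8 exceeded the filter's 0.645 CPM in at least 4 libraries outside WT at cycle 14. A gene was called changed at an edgeR quasi-likelihood adjusted p-value under 0.05, adjusted over all 8467 genes, if its log2 fold change was also 1 or more in size.

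At cycle 14, all 8 tested segment polarity genes were lower in E(z)-KD than in WT embryos, where 13% of all tested genes were called lower. Their median log2 fold change was -1.57, against -0.03 over all tested genes, and their mean levels lay between 22.0% (gsb) and 45.6% (inv) of WT. In CBP-KD embryos 7 of the 8 were lower than in WT, where 15.2% of all tested genes were called lower, and the eighth, inv, was at 103% of WT. The median log2 fold change of the 8 was -3.22 in CBP-KD embryos, against 0.01 over all tested genes. In both knockdowns the libraries of 7 genes lay wholly below those of WT, as did those of 34.5% (E(z)-KD) and 33.0% (CBP-KD) of all tested genes, and inv was the exception in each. The sum over all 9 genes, most of it ptc and nkd, was 337 to 403 CPM in E(z)-KD, 44.6 to 125 CPM in CBP-KD and 1172 to 1233 CPM in WT libraries.

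**Figure D1:**
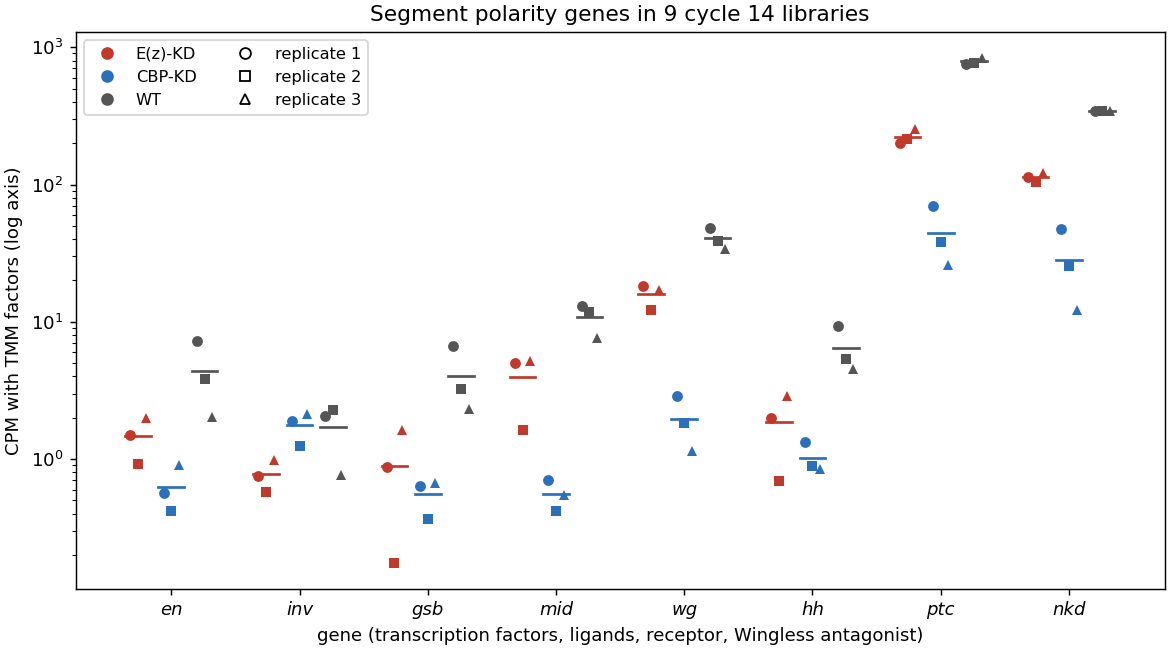
CPM with TMM factors (log axis) of the 8 tested segment polarity genes in the 9 cycle 14 libraries, E(z)-KD in red, CBP-KD in blue and WT in grey; symbols mark replicates and horizontal lines group means. The group means of both knockdowns sit below WT except for inv, whose CBP-KD mean of 1.76 CPM lies beside the WT mean of 1.70 CPM.

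Among the transcription factors, en had 1.5, 0.927 and 1.98 CPM in E(z)-KD libraries, 0.565, 0.416 and 0.908 CPM in CBP-KD libraries and 7.27, 3.82 and 2.01 CPM in WT libraries. The WT libraries themselves spread widely, and the highest E(z)-KD library lay just under the lowest WT library, whereas CBP-KD lay below both. The fitted log2 fold changes were -1.54 ± 0.493 (SE) for E(z)-KD and -2.75 ± 0.533 for CBP-KD (edgeR adjusted p = 0.0162 and 0.000618). Counts behind these values were low, 16 to 28 in E(z)-KD, 8 to 15 in CBP-KD and 21 to 52 in WT libraries.

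The paralogue inv had 0.752, 0.579 and 0.992 CPM in E(z)-KD libraries, 1.91, 1.25 and 2.12 CPM in CBP-KD libraries and 2.05, 2.28 and 0.767 CPM in WT libraries. The CBP-KD values lay within the wider range of WT, and WT replicate 3 fell below every CBP-KD library and within the range of E(z)-KD. For E(z)-KD the log2 fold change was -1.13 ± 0.468 (edgeR adjusted p = 0.0472), a call at the edge of the threshold that is lost when any of the E(z)-KD libraries or WT replicate 1 or 2 is left out (adjusted p between 0.0529 and 0.238). For CBP-KD it was 0.05 ± 0.438 (edgeR adjusted p = 0.978). With 8 to 31 counts in WT libraries, the ratio of CBP-KD to WT means was 1.03. Its counting interval was 0.705 to 1.45 (95%, exact binomial, counting error only). Counting intervals here and below come from counts pooled over the libraries of a group, so they need not be centred on the ratio of means.

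The neighbouring genes en and inv, 14.3 kb apart on opposite strands of chromosome 2R (en 11524006 to 11528210, inv 11474465 to 11509695), differed in proportion between the genotypes. The ratio of en to inv in TPM was 4.24, 3.39 and 4.24 in E(z)-KD libraries, 0.628, 0.707 and 0.909 in CBP-KD libraries and 7.50, 3.56 and 5.56 in WT libraries. Every CBP-KD library held more inv than en per length, and every E(z)-KD and WT library held more en than inv. The mean log2 ratio in CBP-KD was lower than in WT by a difference of -2.84 and lower than in E(z)-KD by -2.41 (two-sided exact permutation test, p = 0.1 for each, the smallest that 3 against 3 allows, with 3 such comparisons made). Between E(z)-KD and WT it differed by -0.43 (exact permutation p = 0.3). The libraries were made with a stranded kit, no value of these genes was fractional, and their gene models do not overlap. The strand setting of the counting is not given in the sources used here. Whole counts do not show how reads were assigned between en and inv, and this assignment was not tested.

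**Figure D2:**
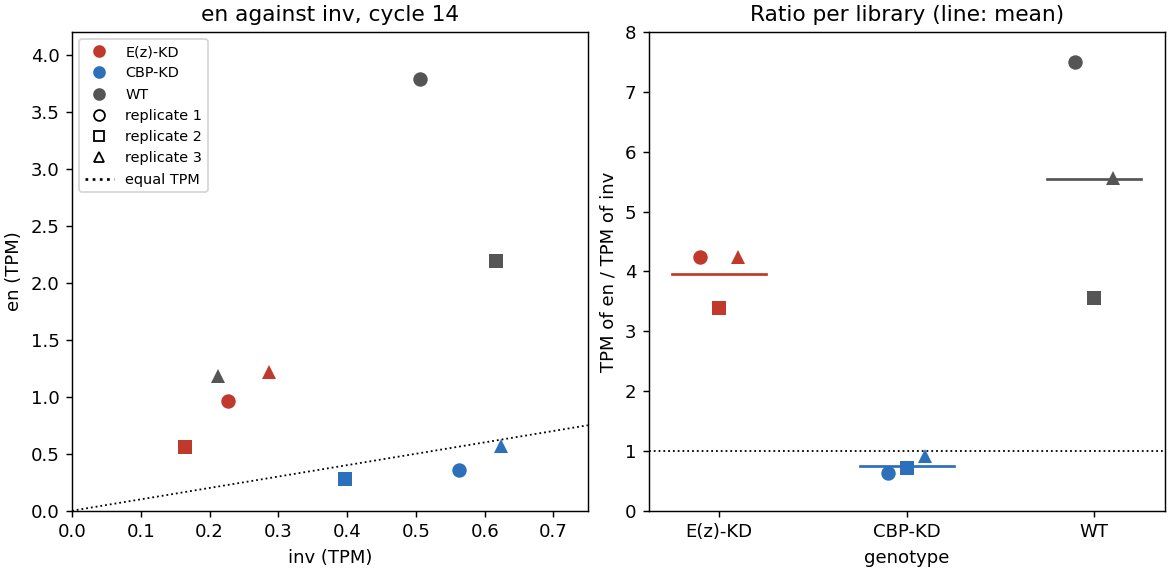
Left, TPM of en against TPM of inv in each cycle 14 library, with a dotted line where they are equal; right, the ratio of en to inv per library by genotype, with the mean as a line. The 3 CBP-KD libraries lie below the line of equal TPM, with ratios of 0.628 to 0.909, and the E(z)-KD and WT libraries lie above it.

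The paired-domain and homeodomain factor gsb had 0.877, 0.174 and 1.63 CPM in E(z)-KD libraries, 0.636, 0.364 and 0.666 CPM in CBP-KD libraries and 6.64, 3.23 and 2.30 CPM in WT libraries. All knockdown libraries lay below all WT libraries. E(z)-KD replicate 2 held 3 counts, against 14 and 23 in its group. The log2 fold changes were -2.17 ± 0.628 for E(z)-KD and -2.83 ± 0.657 for CBP-KD embryos (edgeR adjusted p = 0.00951 and 0.00226).

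The T-box factor mid had 5.01, 1.62 and 5.17 CPM in E(z)-KD libraries, 0.707, 0.416 and 0.545 CPM in CBP-KD libraries and 13.1, 11.8 and 7.58 CPM in WT libraries. E(z)-KD replicate 2 was low here too, and the groups did not overlap. In CBP-KD embryos mid was at 5.13% of WT, with 8 to 10 counts per library. The log2 fold changes were -1.46 ± 0.476 for E(z)-KD and -4.28 ± 0.563 for CBP-KD embryos (edgeR adjusted p = 0.0136 and 5.24e-06).

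Of the 2 secreted ligands, wg had 18.2, 12.3 and 17 CPM in E(z)-KD libraries, 2.90, 1.82 and 1.15 CPM in CBP-KD libraries and 48.5, 39.0 and 34.0 CPM in WT libraries. The 3 groups were fully separated. The means were 39.1% of WT in E(z)-KD and 4.83% of WT in CBP-KD embryos, with log2 fold changes of -1.35 ± 0.309 and -4.38 ± 0.358 (edgeR adjusted p = 0.00155 and 7.86e-08).

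The ligand hh had 2.0, 0.695 and 2.90 CPM in E(z)-KD libraries, 1.34, 0.884 and 0.847 CPM in CBP-KD libraries and 9.32, 5.36 and 4.51 CPM in WT libraries. Both knockdowns lay below WT but overlapped each other, since E(z)-KD replicate 2 was the lowest library of all. The log2 fold changes were -1.77 ± 0.640 for E(z)-KD and -2.63 ± 0.671 for CBP-KD embryos (edgeR adjusted p = 0.0294 and 0.00423).

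The Hedgehog receptor ptc had 201, 216 and 253 CPM in E(z)-KD libraries, 69.7, 38.3 and 26 CPM in CBP-KD libraries and 755, 765 and 841 CPM in WT libraries. Spread within E(z)-KD and WT was small beside the distance between them, while the CBP-KD libraries differed more among themselves. The log2 fold changes were -1.82 ± 0.237 for E(z)-KD and -4.15 ± 0.267 for CBP-KD embryos (edgeR adjusted p = 5.36e-06 and 1.43e-09), which left 28.3% and 5.67% of the WT level.

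The Wingless antagonist nkd had 114, 105 and 120.4 CPM in E(z)-KD libraries, 47.4, 25.3 and 12.3 CPM in CBP-KD libraries and 345, 341 and 340.4 CPM in WT libraries. Its CBP-KD libraries kept the order seen for ptc and wg, replicate 1 highest and replicate 3 lowest. The log2 fold changes were -1.60 ± 0.284 for E(z)-KD and -3.61 ± 0.317 for CBP-KD embryos (edgeR adjusted p = 0.000128 and 4.77e-08). The introns of nkd and ptc hold a short lncRNA gene each, with no exonic overlap.

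**Figure D3:**
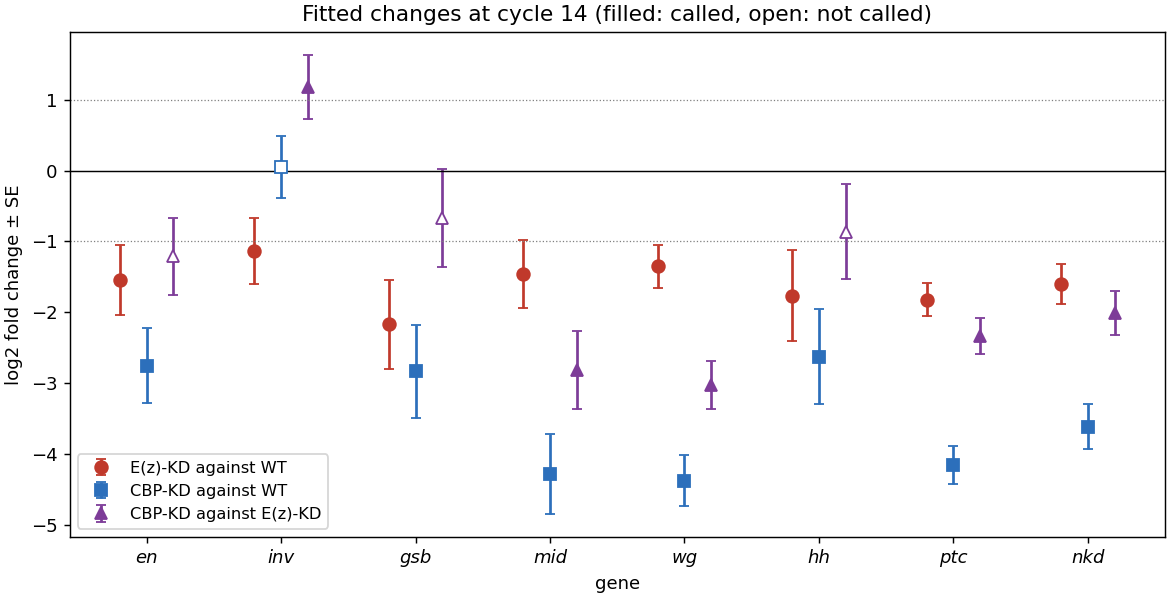
Fitted log2 fold change with its SE for the 8 tested genes at cycle 14, for E(z)-KD against WT, CBP-KD against WT and CBP-KD against E(z)-KD; filled symbols are called, open symbols are not, and dotted lines mark -1 and 1. E(z)-KD values lie between -2.17 and -1.13, CBP-KD values between -4.38 and -2.63 apart from inv at 0.05.

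Set directly against each other, CBP-KD embryos had lower levels than E(z)-KD embryos for 4 of the 8 genes, where 10% of all tested genes were called lower. The libraries of 5 genes, en among them, lay wholly below those of E(z)-KD, as did 24.6% of all tested genes. These were wg (log2 fold change -3.02 ± 0.343), mid (-2.82 ± 0.551), ptc (-2.33 ± 0.254) and nkd (-2.01 ± 0.307), with edgeR adjusted p-values between 2.49e-06 and 0.000708. The gene inv was called higher in CBP-KD (1.18 ± 0.450, edgeR adjusted p = 0.0497, where 5.42% of all tested genes were called higher), and its 3 CBP-KD libraries lay above its 3 E(z)-KD libraries, as did those of 23.5% of all tested genes. That call is lost when any of CBP-KD replicates 1 and 3 or the 3 E(z)-KD replicates is left out (adjusted p between 0.0605 and 0.153). For en (-1.21 ± 0.538), hh (-0.86 ± 0.674) and gsb (-0.66 ± 0.690) the knockdowns were not told apart (edgeR adjusted p = 0.0935, 0.340 and 0.478). The counting interval of the ratio of CBP-KD to E(z)-KD was 0.385 to 0.80 for hh and 0.378 to 1.07 for gsb.

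The calls in E(z)-KD embryos leaned on single libraries for the weakly expressed genes. Without E(z)-KD replicate 2, whose values for hh, gsb and mid were lowest, 4 of the 8 genes were called, and en, inv, hh and mid were not (log2 fold changes between -1.34 and -0.93, edgeR adjusted p between 0.0582 and 0.147). The call of hh was lost without E(z)-KD replicate 1 as well (adjusted p = 0.0667). Without WT replicate 1, the library with the fewest counts and the highest CPM of en, gsb, mid, wg and hh, 5 genes were called, and en, inv and hh were not (adjusted p between 0.0982 and 0.122). The genes wg, gsb, ptc and nkd stayed called whichever library was left out. In CBP-KD embryos 7 genes, all but inv, were called in each such fit.

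The 9 cycle 14 libraries also showed which of these genes varied together. Over these libraries, in log2(CPM + 0.5), Pearson's r was 0.994 between ptc and nkd, 0.984 between wg and ptc, 0.980 between wg and nkd and 0.982 between hh and gsb. For inv it lay between -0.182 and 0.417 with each of the other 7 genes. These values describe 9 points in 3 genotypes and share their between-genotype differences. By the same measure, among genes with at least 5 CPM, the genes most like wg were Blimp-1, Traf4 and pxb (r of 0.994 to 0.995), those most like ptc were wake, pbl and ry (0.998 to 0.999), those most like nkd were salm, hth and l(3)neo38 (0.996 to 0.997), those most like mid were 5-HT2A, drm and grn (0.990 to 0.993) and those most like hh were ush, CG8306 and how (0.964 to 0.970). With all 18 libraries, salm stayed among the nearest 3 of nkd and 5-HT2A among those of mid, and the nearest genes of wg, ptc and hh were others.

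Most other components of the Hedgehog pathway were not called. Of 21 tested genes, 3 were lower and 1 was higher in E(z)-KD than in WT embryos at cycle 14, and in CBP-KD embryos 4 were lower and 0 higher. Over all tested genes 13% were lower and 11.3% higher in E(z)-KD, and 15.2% were lower and 12% higher in CBP-KD embryos. The median log2 fold changes of the list were -0.12 and -0.04. The transcription factor of the pathway, ci, averaged 180 CPM in E(z)-KD, 75.9 CPM in CBP-KD and 529 CPM in WT embryos (log2 fold changes -1.55 ± 0.284 and -2.81 ± 0.300, edgeR adjusted p = 0.000168 and 4.96e-07). The glypican gene dally fell in both (-3.15 ± 0.774 and -2.70 ± 0.748), as did rasp, which encodes the acyltransferase of Hedgehog (-1.13 ± 0.260 and -1.03 ± 0.256). The signal transducer smo fell in CBP-KD embryos (244 CPM, against 503 CPM in WT embryos, log2 fold change -1.04 ± 0.0487), and in E(z)-KD embryos it had 331 CPM (-0.60 ± 0.0482), short of the fold threshold. The gene higher in E(z)-KD embryos, shf, was named after its value was seen and was low throughout (1.19 CPM in E(z)-KD, against 0.183 CPM in WT embryos).

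Of 27 tested genes of the Wingless pathway, a list that shares sgg, CkIalpha, slmb, dally and dlp with the Hedgehog list, 4 were lower in E(z)-KD embryos, 5 were lower in CBP-KD embryos, 0 were higher in either, and the median log2 fold changes were -0.12 and -0.04. Over all tested genes 13% were lower and 11.3% higher in E(z)-KD, and 15.2% were lower and 12% higher in CBP-KD embryos, so most of this list was not called either. Notum, an extracellular deacylase of Wnt proteins, had 1.20 to 2.54 CPM in CBP-KD libraries, against 111 to 137 CPM in WT libraries (log2 fold change -6.23 ± 0.228, edgeR adjusted p = 2.46e-10), and 75.7 to 90.5 CPM in E(z)-KD libraries (-0.61 ± 0.161, short of the fold threshold). The receptor gene fz2 averaged 40.3 CPM in E(z)-KD, 17.6 CPM in CBP-KD and 84.2 CPM in WT embryos (log2 fold changes -1.06 ± 0.146 and -2.26 ± 0.154). The TCF gene pan (-1.16 ± 0.159 and -1.89 ± 0.164) and the Wnt gene wntD (-1.13 ± 0.307 and -2.92 ± 0.333) fell in both knockdowns. The beta-catenin gene arm had 941 CPM in E(z)-KD, 1004 CPM in CBP-KD and 1255 CPM in WT embryos, a difference short of the fold threshold.

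Of 12 tested genes in a list of pair-rule factors and related regulators, which act upstream of the segment polarity genes, 7 were lower in E(z)-KD embryos, 9 were lower in CBP-KD embryos and 0 were called higher in either, with median log2 fold changes of -1.06 and -3.18. The same shares over all tested genes stand beside these counts (13% lower in E(z)-KD, 15.2% lower in CBP-KD). Of the genes not called, hb (0.50 ± 0.0644 and 0.38 ± 0.0643) and ftz-f1 (0.49 ± 0.0802 and 0.62 ± 0.0802) had log2 fold changes above 0 in both knockdowns, short of the fold threshold. The zinc finger gene opa averaged 141 CPM in E(z)-KD, 7.18 CPM in CBP-KD and 546 CPM in WT embryos (log2 fold changes -1.96 ± 0.303 and -6.32 ± 0.404, edgeR adjusted p = 3.38e-05 and 1.31e-09). The repressor genes odd (-1.40 ± 0.282 and -4.37 ± 0.331) and h (-1.36 ± 0.284 and -3.45 ± 0.319) fell in both knockdowns, as did the homeodomain genes prd (-1.04 ± 0.243 and -3.90 ± 0.281) and ftz (-1.08 ± 0.231 and -3.44 ± 0.262). Of 12 tested genes in a list of other segment-patterning transcription factors, which shares odd and the slp genes with the first list and ci with the Hedgehog list, 8 were lower in E(z)-KD embryos and 10 were lower in CBP-KD embryos, beside the same 13% and 15.2%. The TALE homeodomain gene hth averaged 129 CPM in E(z)-KD, 17 CPM in CBP-KD and 515 CPM in WT embryos (-2.0 ± 0.281 and -4.95 ± 0.336), and the LIM homeodomain gene Lim1 averaged 2.23 CPM in E(z)-KD, 1.12 CPM in CBP-KD and 11.3 CPM in WT embryos (-2.34 ± 0.419 and -3.36 ± 0.445). Of the zinc finger genes in that list, drm had log2 fold changes of -1.78 ± 0.452 and -4.22 ± 0.518 and sob of -1.66 ± 0.288 and -1.75 ± 0.288.

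Other stage-dependent genes moved beside these results at cycle 14. Summed over 12 maternal RNAs, E(z)-KD libraries had 8579 to 9371 CPM, CBP-KD libraries 9343 to 10906 CPM and WT libraries 3891 to 4913 CPM. A list of 15 zygotic genes first seen late in cycle 14 or at gastrulation summed to 350.4 to 368 CPM in E(z)-KD, 267 to 312 CPM in CBP-KD and 530.5 to 562 CPM in WT libraries, and of its genes 6 were lower and 2 higher in E(z)-KD and 10 lower and 0 higher in CBP-KD embryos (all tested genes: 13% lower and 11.3% higher, and 15.2% lower and 12% higher). A list of 15 zygotic genes transcribed before or early in cycle 14 summed to 8412 ± 856 CPM in E(z)-KD, 3865 ± 736 CPM in CBP-KD and 10588 ± 975 CPM in WT embryos (SD, n = 3), with 2 genes lower in E(z)-KD embryos and 12 lower in CBP-KD embryos, beside the same 13% and 15.2%. For each of these lists, knockdown and WT libraries did not overlap (exact permutation p = 0.1 each, the smallest possible). The list of late genes already averaged 305 CPM in WT and 335 CPM in CBP-KD embryos before cycle 9. In those WT libraries 12 of its 15 genes had at most 3 counts. Its sum at cycle 14 is therefore not specific to late zygotic transcription. A list of 14 genes was taken as markers of differentiated cells of older embryos. It summed to 234 to 270.1 CPM in E(z)-KD, 36.3 to 64.7 CPM in CBP-KD and 460.0 to 481 CPM in WT libraries. Most of the sum was dpn, pros and elav, and Tm2 had 0 counts in every cycle 14 library. In WT embryos at cycle 14 dpn, pros and elav already averaged 177, 160 and 126 CPM, so the sum is not specific to older cells. Of the 5 genes of this list that were tested, 3 were lower and 1 was higher in each knockdown, beside the same shares of all tested genes. The one higher in E(z)-KD was Fas2, a cell adhesion gene, with 27.2 CPM in E(z)-KD and 2.49 CPM in WT embryos (log2 fold change 3.49 ± 0.260). Fas2 was already higher before cycle 9, with 15.9 CPM in E(z)-KD and 0.286 CPM in WT embryos (log2 fold change 5.74 ± 0.310). The part of these differences in the segment polarity result was not tested.

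Before cycle 9, when most zygotic genes are silent, the 9 genes were at or near 0 in E(z)-KD and WT libraries. In E(z)-KD libraries en, wg, hh, gsb and H15 had 0 counts throughout, and in WT libraries en, inv, hh, gsb and H15 had 0 counts throughout. A count of 0 allows up to 3 counts per library, a floor used below for folds against groups with 0 counts throughout; against other groups the ratio of means is given with its counting interval. Only ptc exceeded the floor in every library, with 21, 19 and 19 counts in E(z)-KD and 11, 12 and 10 counts in WT libraries, or 1.17 ± 0.114 and 0.638 ± 0.0689 CPM (SD, n = 3). The 2 groups did not overlap, which held for 25.7% of all tested genes in that direction, and the ratio of means was 1.84 with a counting interval of 1.17 to 2.89, but the fitted log2 fold change of 0.86 ± 0.956 was not called (edgeR adjusted p = 0.538, and 0.0202 when only the 2 groups compared were fitted, where it was still under the fold threshold). None of the 8 tested genes was called in E(z)-KD before cycle 9 (0 by edgeR and 0 by DESeq2, and 0 at an unadjusted edgeR p under 0.05), where 2.10% of all tested genes were called lower and 7.44% higher.

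In CBP-KD embryos before cycle 9, 5 of the 8 tested genes were higher than in WT, where 7.51% of all tested genes were called higher. The antagonist nkd had 38, 35 and 110 counts in CBP-KD libraries, against 3, 0 and 4 counts in WT libraries. The receptor ptc had 31, 28 and 101 counts in CBP-KD libraries, against 11, 12 and 10 counts in WT libraries. The ratios of mean CPM were 32.2 for nkd (counting interval 15.7 to 83.4) and 5.98 for ptc (4.2 to 9.21), with fitted log2 fold changes of 4.96 ± 1.11 and 2.60 ± 0.756 (edgeR adjusted p = 0.00266 and 0.0150). In both genes replicate 3 was highest, and the other 2 CBP-KD libraries still lay above all WT libraries, as all CBP-KD libraries did for 35.8% of all tested genes. Without replicate 3 the ratios were 20.3 for nkd (9.40 to 52.4) and 3.49 for ptc (2.24 to 5.52).

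The ligand wg had 8, 3 and 8 counts in CBP-KD libraries, against 0, 1 and 0 in WT libraries, a ratio of means of 24.5 (counting interval 3.82 to 998.6, edgeR adjusted p = 0.00137). The ligand hh had 3, 1 and 19 counts in CBP-KD libraries, against 0 in every WT library, at least 3.11-fold higher (edgeR adjusted p = 0.0129), with almost all of its counts in replicate 3, without which all libraries of both groups are within the floor and no fold is given. The factor mid had 6, 2 and 12 counts in CBP-KD libraries, against 0, 0 and 2 in WT libraries, a ratio of 12.9 (3.07 to 112, edgeR adjusted p = 0.0114). Without CBP-KD replicate 3 the ratios were 22.0 for wg (3.12 to 924) and 8.15 for mid (1.56 to 75.5). For en, inv, gsb and H15 the CBP-KD libraries had at most 2 counts each.

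CBP-KD replicate 3 carried much of this difference. Summed over the 9 genes it had 17.7 CPM, against 6.80 and 5.20 CPM in replicates 1 and 2 and 0.739 to 0.894 CPM in WT libraries. The 15 early zygotic genes summed to 281 CPM in it, against 250 and 237 CPM in the other CBP-KD libraries and 226 to 232 CPM in WT libraries, and the number of them at 0 counts was 0 in replicate 3, 1 and 2 in replicates 1 and 2, and 5 to 10 in WT libraries. Few genes at 0 were not particular to CBP-KD, since the number was 10, 2 and 9 in E(z)-KD replicates 1, 2 and 3. In that E(z)-KD replicate 2 the 9 segment polarity genes summed to only 1.28 CPM. Of the 15 early zygotic genes, 8 to 12 had at most 3 counts in WT libraries. In E(z)-KD replicates 1 and 3 this held for 13, yet the list summed to 193 and 177 CPM. The sum thus came from few genes and is not specific to early zygotic transcription. The part of CBP-KD replicate 3 in the result was tested by leaving it out: 2 genes, wg and nkd, then remained called (log2 fold changes 3.94 and 4.27, edgeR adjusted p = 0.00619 and 0.0195), and hh, ptc and mid were not (log2 fold changes 4.27, 1.79 and 2.73, edgeR adjusted p = 0.0722, 0.134 and 0.0762). Of the 12 pair-rule regulators 5 were higher in CBP-KD than in WT embryos before cycle 9, and 3 without replicate 3, beside the 7.51% of all tested genes.

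**Figure D4:**
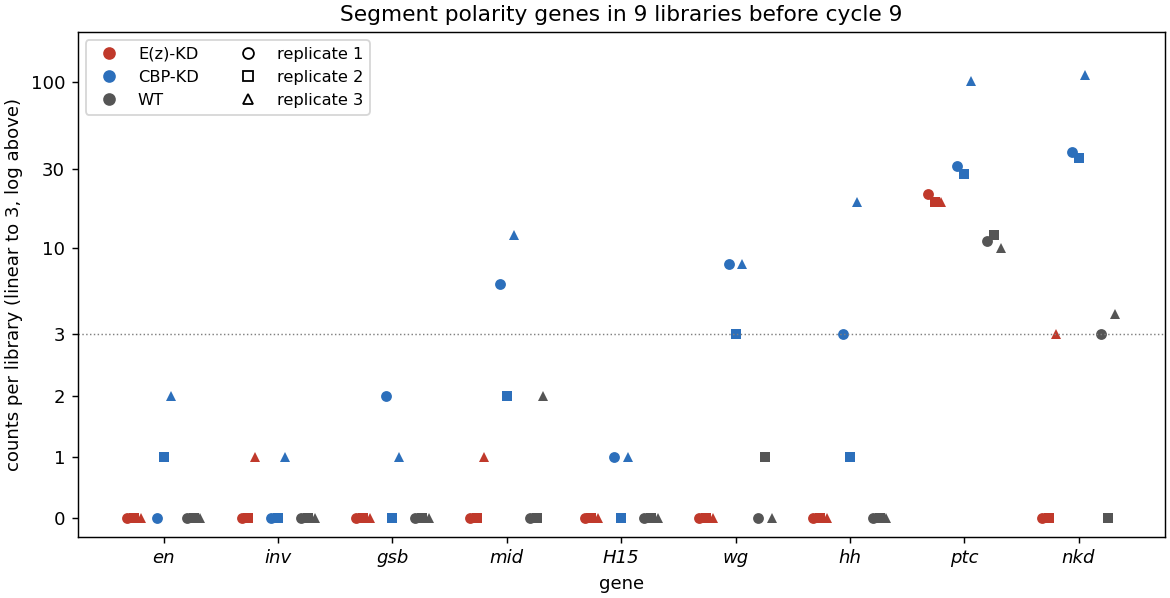
Counts per library of the 9 genes before cycle 9 (axis linear to 3, marked by a dotted line, and logarithmic above), E(z)-KD in red, CBP-KD in blue and WT in grey. CBP-KD values of ptc and nkd lie between 28 and 110 counts, above WT values of 0 to 12, and replicate 3, the blue triangle, is highest for ptc, nkd, hh and mid.

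Between the stages, WT embryos had higher levels of all 8 tested genes at cycle 14 than before cycle 9, where 21.0% of all tested genes were called higher. The means at cycle 14 were 1233-fold higher for ptc (counting interval 882 to 1800), 2518-fold for nkd (1226 to 6287), 2138-fold for wg (364 to 80375) and 291-fold for mid (75.6 to 2284), and at least 36.8-fold for hh, 25.1-fold for en, 23.3-fold for gsb and 9.77-fold for inv (edgeR adjusted p between 8.49e-13 and 1.45e-05). In E(z)-KD embryos all 8 were higher at cycle 14 as well, where 16.1% of all tested genes were called higher, by 190.4-fold for ptc (147 to 250.2), 2039-fold for nkd (649 to 9199), 213-fold for mid (34.3 to 7689) and 42.0-fold for inv (6.48 to 1563), and at least 88.4-fold for wg, 10.4-fold for hh, 8.22-fold for en and 4.99-fold for gsb (edgeR adjusted p between 2.38e-11 and 0.000635).

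In CBP-KD embryos 6 of the 8 were called higher at the later stage, where 16.1% of all tested genes were called higher. The rises were 11.7-fold for ptc (counting interval 9.39 to 13), 6.47-fold for nkd (5.23 to 7.16) and 4.22-fold for wg (2.49 to 7.11), and, against at most 2 counts per library before cycle 9, 76.0-fold for inv (12.3 to 2819), 8.86-fold for en (2.64 to 43.3) and 7.49-fold for gsb (2.27 to 38.0) (edgeR adjusted p between 1.95e-07 and 0.0249). Without CBP-KD replicate 3 before cycle 9 the rises were 20.1-fold for ptc (15.0 to 25.6), 10.3-fold for nkd (7.83 to 12.7) and 16.9-fold for en (2.75 to 672), and at least 7.77-fold for inv. For mid the counts were 10, 8 and 9 at cycle 14 and 6, 2 and 12 before cycle 9, and for hh they were 19, 17 and 14 at cycle 14 and 3, 1 and 19 before cycle 9. Both overlapped between the stages, whereas the other 6 did not (nor did 45.8% of all tested genes in that direction), and neither was called (log2 fold changes 0.18 ± 0.637 and 0.87 ± 0.757, edgeR adjusted p = 0.805 and 0.296). The ratios of means were 1.16 for mid (0.598 to 2.08) and 1.89 for hh (1.07 to 3.06). Without CBP-KD replicate 3 before cycle 9 they were 1.83 for mid (0.793 to 4.57) and 6.75 for hh (2.44 to 25.3). In that fit hh was called (2.67, edgeR adjusted p = 0.00892) and gsb was not (2.72, edgeR adjusted p = 0.0627), and gsb lost its call in 3 further fits that left out a library (adjusted p between 0.0502 and 0.0783).

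The change between the stages was itself compared between genotypes with an interaction term. It was smaller in CBP-KD than in WT embryos for 7 of the 8 genes, all but inv, where 12.6% of all tested genes were called lower in this term. In E(z)-KD embryos it was smaller than in WT embryos for ptc, where 8.10% of all tested genes were called lower, and that call was lost in 10 of the 12 fits that left out a library. For en, hh and gsb all early libraries of both genotypes had 0 counts, so this term could not be tested. For ptc, the mean at cycle 14 was 190.4-fold that before cycle 9 in E(z)-KD, 11.7-fold in CBP-KD (20.1-fold without replicate 3 before cycle 9) and 1233-fold in WT embryos.

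**Figure D5:**
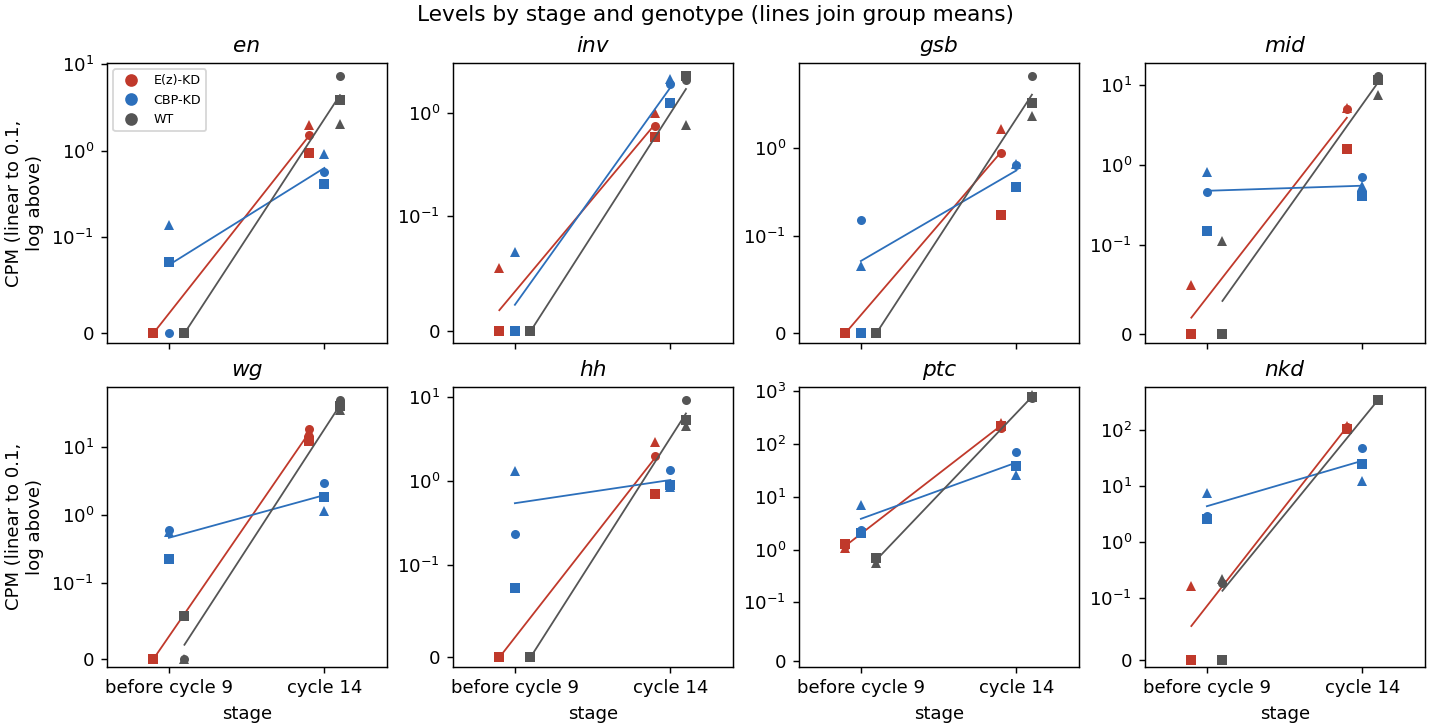
CPM of the 8 tested genes before cycle 9 and at cycle 14 (axis linear to 0.1 and logarithmic above), with lines joining the group means of E(z)-KD (red), CBP-KD (blue) and WT (grey). The CBP-KD lines end lower than the WT lines, except for inv. Their higher start was called for wg, hh, ptc, mid and nkd, and only for wg and nkd without replicate 3. For en, inv and gsb the early CBP-KD libraries had at most 2 counts each. The CBP-KD line of mid joins 0.480 CPM before cycle 9 (0.304 CPM without replicate 3) and 0.556 CPM at cycle 14.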

How the data were processed

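Total RNA libraries were made with a stranded, rRNA-depleting kit. The authors aligned reads with STAR to dm6, allowing up to 1000000 positions per read; the annotation and the strand setting of the counting are not given in the sources used here. The deposited values are estimated counts per gene, of which 2.9% were not whole (tolerance 0.01), and all were rounded. Of 16680 names, 12504 matched current Ensembl 115 symbols, 3992 older ones and 184 none.

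Counts were tested with edgeR 4.0.16 (R 4.3.3, limma 3.58.1): filterByExpr, TMM factors, quasi-likelihood fit of 6 group means over 18 libraries with 12 residual degrees of freedom, Benjamini-Hochberg adjustment over 8467 genes. The SE was taken as |log2 fold change| over the root of the F statistic. TPM used the exon length of each gene model (2792 bp for en and 5919 bp for inv), without regard to which isoforms were expressed. Other steps used Python 3.11.15, pandas 2.3.3 and scipy 1.17.1. Alternatives were DESeq2 1.42.0, other size factors, filters, fits of only the groups compared, a replicate block and leaving out each library. List counts and folds without CBP-KD replicate 3 before cycle 9 or E(z)-KD replicate 2 at cycle 14 were added after the data were seen. In simulated counts for E(z)-KD against WT at cycle 14 (8276 genes), 54 of 61 genes changed by 1.5 on the log2 scale, 65 of 68 changed by 2 and 70 of 71 changed by 3 were recovered. The changed genes were drawn from all levels above a low minimum in WT, so these rates need not hold for en, inv, hh and gsb.

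The study calls its RNA-seq samples biological replicates; the labels number them and do not name separate crosses, so p-values measure the spread between these samples. Replicates differed by more than sampling noise (chi-square of 3.12 to 18.96 per gene over 18 pairs). The members and gene lists were chosen with earlier results of these data known. All 9 members were named; of each pathway or regulator list, up to 4 called genes per direction reaching 5 CPM in either group were named by size of change, and arm, shf and the marker genes were named after their values were seen.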

Additional observations from a re-analysis of the deposited data

Results flagged for a closer look

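The change between the stages differed between genotypes by the interaction term of the edgeR fit for 8 results. In CBP-KD against WT embryos the fitted interaction was -8.70 for hh, -8.57 for nkd, -8.47 for wg, -7.68 for mid, -6.75 for ptc, -6.13 for gsb and -6.04 for en on the log2 scale, with edgeR adjusted p-values between 1.19e-06 and 0.0415. For inv it was -1.93 and was not called (edgeR adjusted p = 0.294). WT libraries before cycle 9 held 0 counts of en, hh and gsb and at most 4 counts of wg, mid and nkd, so these fitted sizes depend on the prior count and are not bounds. In E(z)-KD against WT embryos the interaction was -2.68 for ptc (edgeR adjusted p = 0.0395), a call that was lost in 10 of the 12 fits that left out a library; en, hh and gsb, with 0 counts in all early libraries of both genotypes, could not be tested.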

How the results depend on the processing

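Of 662 results for single genes under the alternatives, 613 kept their direction and side of the threshold, 40 lost the call (18 of them inv), 1 gained it and 8 reversed sign, none of which had been called. A minimum of 10 counts in every sample left only ptc to test, so 1 gene was called in both knockdowns at cycle 14, in CBP-KD before cycle 9, in CBP-KD against E(z)-KD, between the stages in each genotype and in the CBP-KD interaction. Fitting only the groups compared gave 2 calls in CBP-KD before cycle 9. Testing against a fold threshold of 1 (log2) gave 2 calls in E(z)-KD at cycle 14, 2 in CBP-KD before cycle 9 and 0 in the E(z)-KD interaction. Leaving out each library gave 4 to 8 calls in E(z)-KD at cycle 14, 2 to 5 in CBP-KD before cycle 9, 0 to 1 in the E(z)-KD interaction, 5 to 7 in the CBP-KD interaction (5 without CBP-KD replicate 3 before cycle 9), 5 to 6 between the stages in CBP-KD and 4 to 5 in CBP-KD against E(z)-KD. The log2 fold change of inv in CBP-KD at cycle 14 was -0.13 with DESeq2 and with its size factors in edgeR, and lay between -0.31 and 0.38 when a library was left out. On leaving out a library, mid lay between -2.48 and 1.74 in E(z)-KD before cycle 9 and between -0.25 and 0.83 across the stages in CBP-KD, and gsb lay between -1.18 and 0.075 in CBP-KD against E(z)-KD. The cause of these changes was not tested, apart from the fewer genes or samples that a setting leaves.

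Same-numbered replicates did not deviate together in every pair (correlations between -0.169 and 0.207), so the numbers were not taken as pairs. With a replicate block the calls over all genes numbered 2028 against 2055 without it (E(z)-KD) and 2287 against 2303 (CBP-KD) at cycle 14, and inv lost its calls in E(z)-KD (-1.17, edgeR adjusted p = 0.0661) and in CBP-KD against E(z)-KD (1.17, edgeR adjusted p = 0.0777). DESeq2 size factors moved the median of all genes by -0.18 (E(z)-KD) and -0.17 (CBP-KD) at cycle 14 and by 0.25 between the stages in WT. The higher and lower calls over all genes were then 751 and 1326 in E(z)-KD at cycle 14, against 956 and 1099, and 2414 and 2236 between the stages in WT, against 1778 and 2526. Intervals cover counting error only, and en, inv, hh and gsb had 3 to 73 counts per cycle 14 library.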
